A study of Mus musculus with 165 samples.

Results

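PUER cells differentiated for 88 hours in GCSF were compared with PUER cells differentiated for 88 hours in IL3. PUER is a myeloid progenitor line from mice that lack the transcription factor PU.1 (*Spi1*-/-), and it carries PU.1 fused to the hormone-binding part of the estrogen receptor. Adding 4-hydroxy-tamoxifen (OHT) switches the fusion protein on. The members of the comparison are the 6 libraries whose titles name OHT and 88h, 3.64% of all libraries in the series, 3 of them from GCSF-OHT 88h and 3 from IL3-OHT 88h. Groups at other time points enter below only where the difference between the cytokines at 88h is set against the same difference at another time.

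Both groups are thus *Spi1*-/- cells that carry the fusion protein and were exposed to OHT for 88h. In GCSF-OHT 88h, IL3 was replaced by 10 ng/ml GCSF 48 h before OHT, and OHT was used at 100 nM. In IL3-OHT 88h, the cells stayed in 5 ng/ml IL3 and OHT was used at 200 nM. The cytokine, the pre-treatment and the OHT dose therefore differ together between the groups and cannot be told apart. In both arms medium was exchanged in part and OHT was renewed at 40h, 88h and 136h, and whether the 88h cells were taken before or after the second renewal is not given in the sources used here. PUER is 1 line, cells of a time point shared a plate, and the replicates are separate wells, so the p-values measure the spread between wells.

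IL3 binds a receptor made of its own alpha chain and the common beta chain, which activates JAK2, STAT5 and the RAS-ERK pathway and keeps immature myeloid cells alive and dividing. GCSF binds the homodimeric receptor encoded by *Csf3r*, which signals mainly through JAKs and STAT3 and drives the production of neutrophils. PU.1 takes part in both fates: with C/EBPα, C/EBPε and GFI1 it directs the granulocytic program, and with EGR1, EGR2 and their cofactor NAB2 the macrophage program. Neutrophil precursors fill their granules in sequence, first the primary granules with myeloperoxidase and serine proteases and then the secondary and tertiary granules, and stop dividing as they do so.

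Each of the 6 libraries held between 19743664 and 21916137 reads on genes, and 15761 to 16159 genes had a read. Values are normalized counts, reads divided by the library's size factor, and 3 reads correspond to 2.97 to 3.59 of these units, a floor that covers counting error only. Across genes, Pearson's r between the log2 values of a pair of libraries ran from 0.982 to 0.987 within the groups (6 pairs of libraries) and from 0.954 to 0.958 between them (9 pairs), and no library stood apart from its group. Expression is given as a log2 fold change of GCSF over IL3 on log2(normalized count + 1), which understates the change of low genes, from limma with Benjamini-Hochberg (BH) adjustment over 17414 genes. A gene was called at an adjusted p under 0.05 and a log2 fold change over 0.58 in size.

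At 88h, 2007 genes were higher in GCSF (11.5% of the genes tested) and 2314 were lower (13.3%). Counts of list members given below are to be read beside these shares. The median of all genes tested was -0.0048 on the log2 scale. The called genes had a median absolute log2 fold change of 1.09, with 985 over 1 and 1407 under -1, while 45 were over 3 and 113 under -3. In 4134 of the 4321 called genes the 3 libraries of one group lay wholly above the 3 of the other, as they did in 55.2% of all genes tested. Since RNA was extracted from whole wells, fewer cells of a type and less RNA per cell cannot be told apart in any value below.

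**Figure D1:**
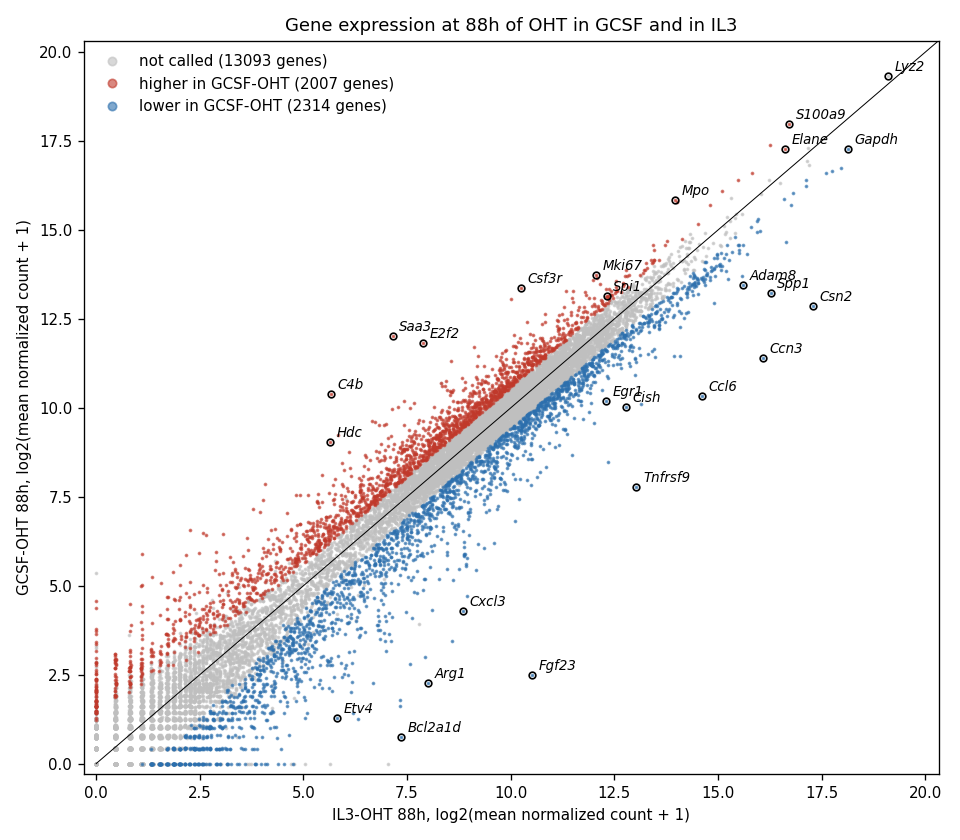
Mean expression of the 17414 genes tested in IL3-OHT 88h (horizontal axis) and GCSF-OHT 88h (vertical axis), both as log2(mean normalized count + 1), n = 3 libraries a group. Red points are the 2007 genes called higher and blue points the 2314 called lower in GCSF, the line marks equal values, and the circled genes are named; *Csf3r*, *Saa3* and *C4b* lie far above the line and *Fgf23*, *Csn2* and *Ccn3* far below it.

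The gene behind the design was present in both groups. *Spi1* (ENSMUSG00000002111, chromosome 2 from 91082390 to 91115756 of GRCm38) had normalized counts of 9073, 9125 and 9126 in GCSF and 5090, 4974 and 5236 in IL3. All GCSF libraries were above all IL3 libraries, at a log2 fold change of 0.84 (SE 0.05, limma BH-adjusted p = 3.86e-32). Gene-level counts do not separate the fusion transcript from a transcript of the deleted locus, so this value is no check of the deletion. Many of the defining genes of lymphoid and erythroid cells were at or near 0. Of the 13 lymphoid markers 3 could be tested, and *Cd3e*, *Cd4* and *Cd8a* had no more than 1 read in any of the 6 libraries. *Hbb-bs* and *Hbb-bt* had 0 reads. Other members were above the floor of 3 reads, with the erythroid factor gene *Klf1* at up to 39 reads in GCSF and 36 in IL3, the erythropoietin receptor gene *Epor* at up to 15 and 35, and *Il7r*, the IL7 receptor chain of lymphoid cells, at up to 11 and 33. The erythroid list summed to 52.4 to 55.2 normalized counts in GCSF and 67.5 to 76.7 in IL3, and the lymphoid list to 13.8 to 18.8 and 30.1 to 45.03.

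The receptor of the cytokine that was added was among the genes raised most. *Csf3r* (ENSMUSG00000028859, chromosome 4 from 126024550 to 126044440), the GCSF receptor, had normalized counts of 10823, 10542 and 10124 in GCSF and 1205, 1074 and 1353 in IL3, 8.67-fold higher (log2 fold change 3.12, standard error (SE) 0.06, limma BH-adjusted p = 1.7e-74). The subunits of the IL3 receptor moved in both directions. *Csf2rb* encodes the common beta chain and had 36474, 37183 and 36891 in GCSF and 24110, 22985 and 23771 in IL3 (log2 fold change 0.64), and *Csf2rb2*, the IL3-specific beta chain of the mouse, had 10662, 10814 and 10656 and 6124, 5881 and 5956 (log2 fold change 0.84). Both beta chains were thus higher in the cells that had no IL3. The 2 genes are near-identical neighbours on chromosome 15, and reads they share could be assigned to either. *Il3ra*, the alpha chain that binds IL3, went the other way, with 737.7, 880.3 and 848.4 in GCSF and 1350, 1157 and 1419 in IL3 (log2 fold change -0.67, SE 0.13), and so did *Csf2ra*, the alpha chain for GM-CSF (-0.68).

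Of the 22 cytokine receptors tested, 9 were higher and 4 lower in GCSF. After *Csf3r*, the largest rises were those of *Il1r2*, the decoy receptor for IL1, with 1285, 1145 and 1081 in GCSF and 164.1, 167.7 and 179.3 in IL3 (6.87-fold), and *Il17ra*, the IL17 receptor chain, with 10025, 10010 and 9922 and 2516, 2524 and 2708 (3.87-fold). No library of either group came near the other for these genes. *Csf1r*, the receptor for M-CSF and a defining gene of macrophages, stayed low in both groups, with 16.6, 19.8 and 18.99 in GCSF and 8.39, 9.01 and 2.23 in IL3. Its call (log2 fold change 1.53, limma BH-adjusted p = 0.00143) was lost without IL3-OHT 88h replicate 3, the lowest library, and in a fit of only these groups. The growth factor gene *Csf1*, which encodes M-CSF itself, had 186.6, 187.9 and 187.9 in GCSF and 29.9, 27.02 and 31.2 in IL3 (6.38-fold).

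The 8 genes with the largest fall were selected as called genes with groups that do not overlap and a mean of at least 200 in IL3. *Fgf23*, a hormone of phosphate balance, had 1.10, 7.91 and 4.996 normalized counts in GCSF and 1525, 1448 and 1374 in IL3, 310.2-fold lower (log2 fold change -8.23, SE 0.45, limma BH-adjusted p = 1.33e-33). Its GCSF values lie around the floor of 3 reads, so the size of this ratio rests on few reads. *Csn2*, which encodes the milk protein β-casein, had 7419, 7908 and 6844 in GCSF and 151345, 160959 and 171075 in IL3, 21.8-fold lower (limma BH-adjusted p = 9.42e-76). *Csn3*, κ-casein, had 12.1, 2.97 and 5.996 and 196.5, 274.7 and 259.5. Caseins are textbook targets of STAT5, which was found as a factor on the β-casein promoter of the mammary gland. In these myeloid cells both casein genes were lower in every GCSF library than in any IL3 library, while *Csn2* stayed far above the floor in GCSF.

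Also among the 8 largest falls were *Ccn3*, a secreted matricellular protein, with 2351, 2957 and 2792 in GCSF and 67575, 73322 and 68020 in IL3 (25.8-fold lower), and *Tnfrsf9*, the costimulatory receptor 4-1BB, with 196.6, 217.6 and 237.8 and 7879, 9380 and 7809 (38.4-fold lower). *Arg1*, arginase, had 4.42, 4.95 and 1.999 in GCSF and 209.6, 346.7 and 212.7 in IL3, and *F2rl2*, a receptor of the thrombin family, 11.04, 8.90 and 9.99 and 365.4, 399.6 and 378.7. The chemokine gene *Cxcl3* completed the set with 12.1, 28.7 and 14.99 against 456.4, 470.5 and 444.4.

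The 8 genes with the largest rise were selected by the same rule in the other direction. *Saa3*, the acute-phase protein serum amyloid A3, had 4276, 3897 and 4312 normalized counts in GCSF and 155.7, 118.2 and 149.2 in IL3, 29.5-fold higher (log2 fold change 4.88, SE 0.15, limma BH-adjusted p = 4.54e-56). *C4b*, complement component C4, had 1670, 1097 and 1263 and 59.9, 33.8 and 54.6 (27.2-fold), and *E2f2*, a transcription factor of the E2F family that acts on genes of DNA synthesis, 3567, 3632 and 3585 and 253.96, 218.4 and 231.7 (15.3-fold). The spread within a group was small beside these gaps. *Hdc*, histidine decarboxylase, which makes histamine, had 499.2, 548.9 and 532.6 in GCSF and 46.7, 49.5 and 51.2 in IL3 (10.7-fold), and *Cacna1d*, a calcium channel subunit, 239.6, 205.7 and 247.8 and 10.8, 18.01 and 18.9 (14.5-fold). The remaining 2 of the 8 after *Csf3r* were *Gm10222*, a pseudogene with 620.6, 644.9 and 540.6 in GCSF and 0, 0 and 167.1 in IL3, and *Gm45140*, with 231.9, 198.8 and 269.8 and 0, 85.6 and 93.6. Their IL3 libraries were far apart, both calls were lost without IL3-OHT 88h replicate 1, by DESeq2 and in a fit of only these groups, and the call of *Gm10222* also without IL3-OHT 88h replicate 2. Pseudogenes share reads with their parent genes, so the values are uncertain.

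Some called genes were at 3 reads or fewer in every library of one group, 193 of the 2007 higher and 336 of the 2314 lower in GCSF. Among them are genes near the floor in both groups. *Akap14*, called higher, had no more than 2 reads in GCSF and 0 in IL3, and *Runx3*, called lower, 0 and no more than 3. Calls of that kind rest on very few reads. On the lower side the *Bcl2a1* genes stood out, which encode the survival protein A1. *Bcl2a1d* had 0, 1 and 1 reads in GCSF and normalized counts of 149.7, 151.97 and 187.1 in IL3, lower by 238.2-fold (95% counting interval 65.5 to 1973). *Bcl2a1a* had 3, 2 and 2 reads against normalized counts of 138.96, 180.1 and 162.6 (67.1-fold (95% counting interval 32.3 to 167.9)), and *Bcl2a1b* 2, 1 and 1 reads against 75.5, 88.9 and 73.5 (57.9-fold (95% counting interval 22.3 to 214.4)). These copies are near-identical, so how the reads divide between them is uncertain while each was at 3 reads or fewer in every GCSF library. *Plet1*, a surface protein of epithelial progenitors, followed with 3, 1 and 2 reads in GCSF against normalized counts of 140.2, 173.4 and 165.95 in IL3, and *Btn2a2*, a butyrophilin, with 0, 2 and 3 reads against 74.3, 76.5 and 66.8.

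On the higher side, *Ifit1bl1*, an interferon-induced gene, had 58, 57 and 54 reads in GCSF and 1, 1 and 1 in IL3, higher by 50.6-fold (95% counting interval 17.03 to 247.9). *Lep*, the gene of the hormone leptin, had 38, 24 and 46 reads against 2, 1 and 1 (24.3-fold (95% counting interval 9.21 to 90.6)). *Crispld2*, a secreted protein that binds lipopolysaccharide, had 30, 36 and 26 against 2, 0 and 1, and *Wnt16*, a WNT ligand, 23, 31 and 36 against 0, 1 and 2. *AC139209.1* had 41, 0 and 23 reads in GCSF and 0 in each IL3 library. One of its GCSF libraries was also at 0, and its call was lost in 10 of 16 alternatives.

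Genes downstream of the cytokine receptors divided into those lower and those higher in GCSF. Among the 14 STAT target genes tested, 6 were lower and 2 higher (median log2 fold change -0.53). *Cish* (ENSMUSG00000032578, chromosome 9 from 107296026 to 107302784), a feedback inhibitor induced by STAT5, had 955.3, 1127 and 1042 normalized counts in GCSF and 7140, 6763 and 7114 in IL3, 6.73-fold lower (log2 fold change -2.75, limma BH-adjusted p = 8.11e-59). *Socs1*, a second feedback inhibitor, had 57.4, 71.2 and 44.97 and 500.7, 435.6 and 485.6 (8.19-fold lower), and *Socs2* 263.9, 323.4 and 274.8 and 894.8, 871.3 and 899.9 (3.09-fold lower). The cytokine gene *Osm* had 205.4, 184.95 and 178.9 against 675.6, 639.4 and 531.3, and *Bcl2l1*, which encodes the survival protein BCL-xL, 981.8, 956.4 and 939.3 against 2529, 2627 and 2571. All 5 were lower in every GCSF library than in any IL3 library, and *Id1* was the last of the 6.

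The called genes on the other side were *Bcl3*, a nuclear IκB protein, with 954.2, 1036 and 999.3 in GCSF and 128.2, 135.1 and 157.04 in IL3 (7.11-fold higher), and *Bcl6*, a transcriptional repressor, with 1272, 1351 and 1299 and 401.3, 347.8 and 356.4 (3.55-fold higher). *Socs3*, the inhibitor that binds the GCSF receptor, did not pass the thresholds. Its counts were 8881, 9829 and 9459 in GCSF and 9313, 8304 and 8699 in IL3, the groups overlapped, and the log2 difference was 0.10 (95% interval -0.06 to 0.25). The kinase gene *Pim1*, with 18291, 20300 and 19967 and 23327, 19967 and 22049, also overlapped and was not called (-0.16, limma BH-adjusted p = 0.0885).

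Start-site windows from RefSeq (GRCm38.p6) were searched for the STAT motif TTCNNNGAA, which reads the same on both strands. The sequences shown are those of genes that were lower in GCSF and held the motif, the STAT target *Cish* and, of the 8 largest falls, *Csn2* and *Fgf23* (*Tnfrsf9* of the same 8 also held it and is not printed), and capitals mark the motif. Of the 8 largest falls only 5 genes had a window that could be searched. The *Cish* stretch (chr9:107296559-107296683, plus strand) spans the RefSeq start, and the *Csn2* stretch (chr5:87699426-87699550, minus strand) and the *Fgf23* stretch (chr6:127072777-127072901, plus strand) end just before it.
Cish: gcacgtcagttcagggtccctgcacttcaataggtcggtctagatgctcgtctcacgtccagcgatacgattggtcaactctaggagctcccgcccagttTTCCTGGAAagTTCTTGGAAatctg
Csn2: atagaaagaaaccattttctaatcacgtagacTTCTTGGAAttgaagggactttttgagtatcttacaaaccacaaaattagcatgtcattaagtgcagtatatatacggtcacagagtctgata
Fgf23: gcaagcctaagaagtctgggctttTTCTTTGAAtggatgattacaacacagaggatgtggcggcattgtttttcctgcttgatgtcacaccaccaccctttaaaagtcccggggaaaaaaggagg

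In *Cish* a pair of matches lies at bases 1 and 12 of the RefSeq transcript, while the match of *Csn2* begins at -93 from its start. The motif is common. It was in 8.3% of all 32851 windows of 300 bases, in 7.05% of the 14706 windows of genes tested, in 5.78% of the 1954 windows of genes lower in GCSF and in 8.78% of the 1856 windows of genes higher in GCSF. Of the 14 STAT target genes 10 had a window, and 3 of these (*Cish*, *Socs3* and *Bcl6*) held the motif, among them genes that were lower, higher and not called. A match is a run of letters and not evidence of binding.

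Targets and inhibitors of the ERK pathway were lower in GCSF almost throughout. Of 13 tested, 10 were lower and 1 was higher, with a median of -1.26 on the log2 scale. *Etv5*, a transcription factor of the PEA3 group, had 18.8, 16.8 and 20.98 normalized counts in GCSF and 239.6, 301.7 and 273.99 in IL3, 14.4-fold lower (limma BH-adjusted p = 5.57e-23), and its relative *Etv4* had 3, 1 and 0 reads in GCSF against normalized counts of 59.9, 52.9 and 51.2 in IL3. *Dusp4*, a nuclear MAP kinase phosphatase, had 37.5, 53.4 and 39.97 and 480.4, 418.8 and 393.2 (9.87-fold lower), and *Dusp6*, the ERK phosphatase of the cytoplasm, 2198, 2378 and 2463 and 5582, 5724 and 5591 (2.40-fold lower). *Spry1*, one of the Sprouty inhibitors, was the exception, with 310.3, 317.5 and 301.8 in GCSF and 172.5, 181.2 and 209.4 in IL3 (1.65-fold higher).

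Immediate-early genes, which respond within minutes to growth signals, were also mostly lower where called. Of 17 tested, 10 were lower and 1 was higher (median -0.65). *Fosl1* and *Maff*, both bZIP factors, had 2081, 2354 and 2304 and 230.8, 254.2 and 297.8 in GCSF against 7155, 5919 and 6442 and 799.01, 776.7 and 745.1 in IL3. *Fosl2* was higher, with 14320, 15400 and 15315 against 10110, 9213 and 9542. The groups of *Fosb* overlapped, with 886.8, 1196 and 1129 and 1004, 1087 and 1085 (0.01, 95% interval -0.35 to 0.36).

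*Egr1* and *Egr2* encode zinc finger factors of the macrophage program and are also immediate-early genes. *Egr1* (ENSMUSG00000038418, chromosome 18 from 34859823 to 34864984) had 945.3, 1235 and 1295 in GCSF and 5288, 5448 and 4355 in IL3, 4.34-fold lower (log2 fold change -2.12, SE 0.18, limma BH-adjusted p = 1.4e-20). *Egr2* had 34.2, 33.6 and 36.97 and 185.7, 217.3 and 177.1 (5.53-fold lower), and their cofactor *Nab2* 1977, 2193 and 2166 and 3920, 3285 and 3269 (1.65-fold lower). None of the GCSF libraries reached an IL3 library in any of the 3. Of 16 macrophage transcription factors tested 0 were higher and 8 lower (median -0.77), the others being *Pparg* (-1.28), *Tfec* (-1.10), *Mitf* (-0.98), *Klf2* (-0.81) and *Id2* (-0.59). *Maf* and *Klf4* were at 0 reads in all 6 libraries. *Irf8*, which marks monocyte precursors, was at 8.83, 5.93 and 5.996 in GCSF and 17.97, 9.01 and 15.6 in IL3 and was not called (-0.91, limma BH-adjusted p = 0.0629), though it was called with a pseudocount of 5, by edgeR and without IL3-OHT 88h replicate 2.

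Of the 8 granulocytic factors tested 2 were higher in GCSF and 1 was lower, beside 11.5% and 13.3% of all genes tested. *Cebpa*, which starts the granulocytic program, had 22947, 25611 and 24332 normalized counts in GCSF and 14274, 12095 and 14358 in IL3 (log2 fold change 0.84, limma BH-adjusted p = 5.15e-09), and *Cebpe*, needed for secondary granules, 2476, 2587 and 2452 and 1318, 1206 and 1497 (0.91). Both were higher in 3 of 3 GCSF libraries. *Gfi1*, the repressor that opposes the macrophage genes, had 5186, 5464 and 5014 and 3772, 3356 and 3654. Its groups did not overlap and its adjusted p was 5.23e-14 by limma, but its log2 fold change of 0.54 stayed under the size threshold. *Rara*, the retinoic acid receptor, was the one called lower (-0.59), a call lost by edgeR and without any of 3 libraries (GCSF-OHT 88h replicate 1, IL3-OHT 88h replicates 1 and 3).

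**Figure D2:**
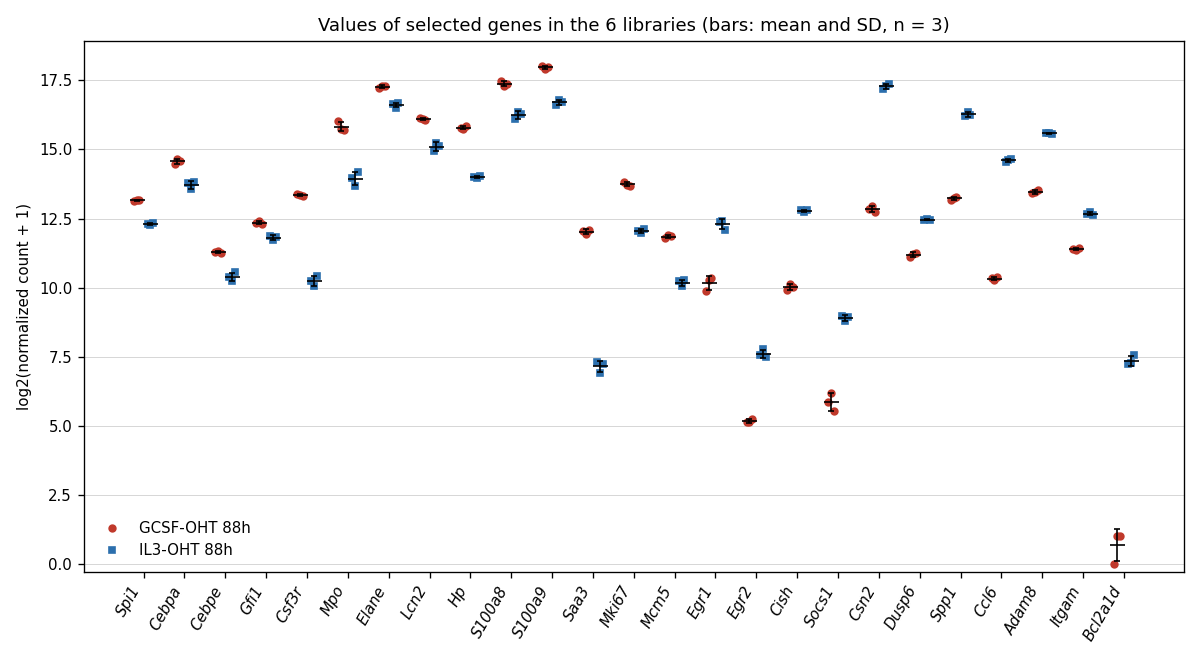
Values of 25 selected genes in the 6 libraries, as log2(normalized count + 1) on the vertical axis; circles are GCSF-OHT 88h, squares IL3-OHT 88h, and black bars the mean and SD of 3 libraries. The groups do not overlap for any gene drawn, but the genes were picked. Genes whose groups overlapped, such as *Ltf*, *Socs3*, *Pim1* and *Fosb*, are not drawn. Among all genes tested the groups did not overlap in 55.2%.

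Most granule genes that were called were higher in GCSF. *Mpo* (ENSMUSG00000009350, chromosome 11 from 87793581 to 87804413), the myeloperoxidase of primary granules, had 66187, 55473 and 53835 normalized counts in GCSF and 15926, 13257 and 18686 in IL3, 3.67-fold higher (log2 fold change 1.88, SE 0.10, limma BH-adjusted p = 1.7e-33). *Elane*, neutrophil elastase, had 153967, 160815 and 162192 and 103002, 93572 and 104340 (1.59-fold), and *Prss57*, a further serine protease, 164.5, 154.3 and 192.9 and 15.6, 20.3 and 10.02 (11.2-fold). Of 9 primary granule genes tested these 3 were called higher. *Prtn3* (0.57) and *Ctsg* (0.23) were under the size threshold. *Srgn*, the proteoglycan that packs granule proteases, was lower, with 4987, 4522 and 4967 in GCSF and 12023, 12634 and 11728 in IL3 (2.51-fold).

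In the secondary and tertiary granules, 8 of 17 genes were higher and 1 was lower (median 0.45). *Hp*, haptoglobin, had 56653, 55215 and 58540 in GCSF and 16371, 15994 and 16978 in IL3 (3.45-fold higher), and *Chil1*, a chitinase-like protein, 98.3, 88.03 and 94.9 and 3.59, 2.25 and 5.57 (24.6-fold). The IL3 values of *Chil1* lie around the floor of 3 reads, so the size of its ratio is uncertain. *Lcn2* (1.98-fold), *Camp* (1.97-fold), *Olfm4* (1.91-fold), *Ngp* (1.85-fold), *Cd177* (1.71-fold) and *Orm1* (2.36-fold) were the other 6. *Ltf*, lactoferrin, which defines secondary granules, was low and its groups overlapped, with 192.2, 152.3 and 181.9 and 141.4, 201.5 and 164.8 (0.06, 95% interval -0.53 to 0.65). *Lyz2*, lysozyme, had 685336, 632899 and 651613 and 540231, 572884 and 576641, groups that did not overlap at a log2 difference of 0.22, too small to be called. *Adam8*, a metalloprotease of granule membranes, was the gene that was lower, with 10854, 11292 and 11844 in GCSF and 50207, 49431 and 48913 in IL3 (4.37-fold).

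*S100a8* and *S100a9*, which together form calprotectin, rose together. *S100a9* had 267592, 244463 and 261419 in GCSF and 100422, 114535 and 107576 in IL3 (2.40-fold, limma BH-adjusted p = 2.62e-33), and *S100a8* 181413, 161982 and 171518 and 70108, 84408 and 79122 (2.20-fold). Of the 16 S100 and annexin genes 4 were higher and 4 lower. *Anxa1*, an anti-inflammatory annexin of neutrophils, was 2.23-fold higher, while *Anxa4* and *S100a10* were 2.45-fold and 2.92-fold lower.

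The NADPH oxidase makes the superoxide with which phagocytes kill microbes. Of 7 NADPH oxidase genes, 4 were higher and 0 lower. *Cybb*, the catalytic subunit gp91phox, had 1062, 969.3 and 1059 normalized counts in GCSF and 166.5, 215.004 and 190.5 in IL3 (5.40-fold, limma BH-adjusted p = 8.51e-20), *Ncf4*, the regulatory subunit p40phox, 742.1, 691.4 and 784.4 and 114.999, 120.4 and 131.4 (6.05-fold), and *Hvcn1*, the proton channel that balances its charge, 6416, 6481 and 6123 and 1863, 1711 and 1854 (3.504-fold). *Rac2*, the GTPase of the complex, was the last called (0.64), while *Ncf1* (0.33) and *Cyba* (-0.26) were among those not called.

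Among 14 receptors for chemoattractants 6 were higher and 2 lower, beside 11.5% and 13.3% of all genes tested. *Cxcr2*, through which neutrophils leave the bone marrow, had 1788, 1566 and 1541 in GCSF and 578.6, 642.8 and 654.9 in IL3 (2.61-fold), and *Ltb4r1*, the leukotriene B4 receptor, 413.03, 431.2 and 453.7 and 140.2, 169.98 and 184.9 (2.62-fold). The receptors for formyl peptides (*Fpr1*, 2.70-fold) and platelet-activating factor (*Ptafr*, 2.46-fold) and *Cx3cr1* (2.04-fold) were also called higher. The complement receptors were lower, *C5ar1* with a log2 fold change of -0.61, a call lost without IL3-OHT 88h replicate 3, and *C3ar1* with -3.35. Of the 18 Toll-like receptors and adaptors 6 were higher, with *Tlr1* at 122.6, 139.5 and 140.9 against 11.98, 21.4 and 10.02 and the adaptor *Myd88* at 1625, 1665 and 1671 against 603.7, 574.1 and 604.8, and 2 were lower, with the co-receptor *Cd14* at 2317, 2568 and 2305 against 5585, 6219 and 6219.

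Chemokines and other secreted signals were the group of ligands, and most were lower in GCSF. Of 21 tested 11 were lower and 2 higher (median -0.97), and 12 of the 30 listed were at 3 reads or fewer in both groups. *Ccl6* had 1297, 1230 and 1323 normalized counts in GCSF and 24060, 25277 and 25501 in IL3 (19.4-fold lower, limma BH-adjusted p = 9.29e-84), and its neighbour *Ccl9* 315.8, 348.1 and 399.7 and 4818, 5722 and 5022 (14.6-fold lower). *Spp1*, osteopontin, had 9290, 9590 and 10029 and 75041, 84352 and 77660 (8.20-fold lower). *Cxcl2* (-2.55), *Il1rn* (-1.94), *Lif* (-1.88), *Ccl4* (-1.26), *Ccl3* (-1.16), *Tnf* (-1.01) and *Tgfb1* (-0.76) were called lower too, all values being log2 fold changes.

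Macrophage and monocyte markers divided. Of 16 tested 7 were lower and 2 higher in GCSF, and the C1q genes were at 2 reads or fewer in all libraries. The scavenger receptor *Msr1* had 54.1, 36.6 and 38.97 in GCSF and 182.1, 183.5 and 157.04 in IL3, *Cd68*, a lysosomal glycoprotein of macrophages, 735.5, 879.3 and 808.4 and 2112, 2304 and 2339, and *Mmp12*, macrophage elastase, 4.42, 5.93 and 2.998 and 58.7, 61.9 and 60.1. *Adgre1*, the F4/80 antigen, was lower with a log2 fold change of -1.04 and *Ly6c2*, a marker of monocytes, with -0.63. *F13a1*, the coagulation factor that marks monocytes, was higher, with 1903, 1852 and 1932 in GCSF and 630.1, 728.3 and 674.9 in IL3 (2.80-fold).

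Integrins and adhesion molecules were lower in 9 of 16 and higher in 1. *Itgam*, which encodes CD11b and serves as a marker of myeloid differentiation, had 2727, 2630 and 2736 in GCSF and 6457, 6837 and 6297 in IL3, 2.42-fold lower (log2 fold change -1.27, limma BH-adjusted p = 4e-38). Its partner chain *Itgb2* had 21249, 21150 and 21382 and 40567, 41751 and 41360 (1.94-fold lower), and *Itgax*, CD11c, 22.1, 20.8 and 26.98 and 93.4, 130.6 and 126.97. *Itgal*, CD11a, which pairs with the same beta chain, went up, with 459.4, 422.3 and 422.7 against 65.9, 64.2 and 73.5 (6.41-fold).

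Of 26 Fc and paired myeloid receptors, 7 were higher, led among the abundant ones by *Clec5a* (2.51-fold), and 7 lower, among them *Clec4d* (2.30-fold) and *Lilrb4a* (1.68-fold). Antigen presentation genes were lower in 6 of 11 and higher in 0. *Ciita*, the master factor of MHC class II, had 1, 2 and 2 reads in GCSF and 25, 22 and 39 in IL3, while the class II genes *H2-Aa*, *H2-Ab1* and *H2-Eb1* had no more than 1 read in any library. Lysosomal genes were lower in 11 of 32 and higher in 0 (median -0.40), with cathepsin D (*Ctsd*) at 76434, 75590 and 78496 in GCSF and 140092, 150657 and 141113 in IL3 and β-galactosidase (*Glb1*) at 1015, 946.5 and 914.3 and 2526, 2538 and 2446.

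Interferon-stimulated genes ran in the other direction. Of 20 tested 12 were higher and 2 lower in GCSF (median 1.12). *Ifit2*, an antiviral RNA-binding protein, had 1471, 1392 and 1324 normalized counts in GCSF and 379.7, 375.98 and 388.7 in IL3 (3.66-fold higher), and *Ifitm6*, an interferon-induced transmembrane protein, 366.6, 347.2 and 340.8 and 55.1, 46.2 and 80.2 (5.81-fold). A signalling gene of the pathway was among them, *Irf9* with 561.01, 482.7 and 448.7 against 241.98, 238.6 and 233.9. *Isg20* and *Bst2* were lower, with log2 fold changes of -1.52 and -1.36.

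Genes of DNA replication and mitosis were higher in GCSF with 2 exceptions. Of 24 DNA replication genes 23 were higher, and of 25 mitosis genes 24, with medians of 1.24 and 1.23 on the log2 scale and none lower, against 11.5% of all genes tested. *Rfc4* (0.39) and *Bub1* (0.55) were the ones not called. *Mki67*, the proliferation marker Ki-67, had 14381, 13538 and 13206 normalized counts in GCSF and 4279, 4059 and 4413 in IL3, 3.23-fold higher (log2 fold change 1.69, SE 0.09, limma BH-adjusted p = 3.11e-36). *Mcm3*, a subunit of the replicative helicase, had 4013, 3934 and 4058 and 1059, 1184 and 1328 (3.36-fold), *Tyms*, thymidylate synthase, 629.5, 560.8 and 586.6 and 116.2, 146.3 and 147.02 (4.34-fold), and *Kif11*, the mitotic kinesin, 2486, 2203 and 2307 and 680.4, 663.02 and 625.9 (3.55-fold). The summed level of the replication genes was 45462 to 45792 in the GCSF libraries and 18058 to 19782 in the IL3 libraries, and that of the mitosis genes 60026 to 63951 and 23804 to 26092.

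The regulators of G1 were divided, with 6 higher and 2 lower of 15. *Cdkn1a*, the p21 inhibitor, had 12733, 13399 and 13705 in GCSF and 33580, 29564 and 29816 in IL3 (2.33-fold lower), and *Ccnd2*, cyclin D2, a G1 cyclin induced by STAT5, 4887, 4884 and 5181 and 16949, 18083 and 17271 (3.498-fold lower). *Cdk6*, a partner of the D cyclins, had 13218, 13608 and 13050 and 7281, 6840 and 6751 (1.91-fold higher), and *Cdkn2c*, the p18 inhibitor, 1793, 1728 and 1778 and 673.2, 553.8 and 663.8 (2.80-fold higher). Progenitor genes were higher in 3 and lower in 1 of 11 tested, beside 11.5% and 13.3% of all genes tested. *Kit* was at 2367, 2511 and 2393 in GCSF and 1502, 1552 and 1389 in IL3 (log2 fold change 0.71) and *Sox4* at -0.68. *Myb* was called at 0.59, a value on the threshold that was lost under upper-quartile scaling and without IL3-OHT 88h replicate 2.

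The E2F motif, searched as TTTCCCGC and TTTGGCGC on both strands, was in 1.56% of all windows, in 2.58% of the windows of genes tested, in 34.8% of the 23 windows of DNA replication genes (8 of 19 genes with a window) and in 0 of the 22 windows of mitosis genes. It was in 5.28% of windows of genes higher and 1.38% of windows of genes lower in GCSF. The helicase subunit *Mcm5* (3.18-fold higher, 3528, 3810 and 3696 against 1194, 1057 and 1224) gives an example, from the bases before its start (chr8:75109334-75109458, plus strand, RefSeq GRCm38.p6), with its match in capitals.
Mcm5: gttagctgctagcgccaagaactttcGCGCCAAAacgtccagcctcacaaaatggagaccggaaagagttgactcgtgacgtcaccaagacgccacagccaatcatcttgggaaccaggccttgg

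Genes of the BCL2 family, which hold survival and death proteins, were lower in 6 and higher in 2 of 16. Beside the *Bcl2a1* copies and *Bcl2l1* described above, the pro-death genes *Bbc3* (-1.11) and *Bax* (-0.70) were lower. *Bik* (1.67) and *Bmf*, pro-death BH3-only genes, were higher, *Bik* at no more than 15 reads in GCSF and 5 in IL3. *Bmf* had 353.4, 381.8 and 407.7 in GCSF and 134.2, 120.4 and 114.7 in IL3 (3.09-fold). The count of 2 higher genes fell to 1 in at least 1 alternative. *Mcl1*, the survival gene on which neutrophils rely, had 24140, 23845 and 24105 and 37158, 33517 and 33403, groups that did not overlap at a log2 difference of -0.53, under the threshold.

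Most of the glycolysis genes that were called were lower in GCSF. Of 21 glycolysis genes 9 were lower and 2 higher (median -0.47), with the glucose transporter *Slc2a1* at 12600, 12833 and 12657 normalized counts in GCSF and 25974, 25105 and 24499 in IL3, *Gapdh* at 158718, 161352 and 159790 and 290510, 286648 and 290022, and *Gpi1* at 100445, 103232 and 97735 and 201092, 195972 and 205480. *Pkm*, pyruvate kinase, was not called (0.15, 95% interval 0.01 to 0.29). All reads on glycolysis genes together made up 3.81% to 3.85% of a GCSF library and 4.98% to 5.10% of an IL3 library. Targets of ATF4, which responds to a shortage of amino acids, were lower in 9 and higher in 2 of 22, with *Pycr1*, of proline synthesis, at 181.1, 201.8 and 232.8 against 736.7, 703.5 and 744.003 and the cystine transporter *Slc7a11*, which was higher, at 186.6, 151.3 and 154.9 against 38.3, 42.8 and 36.8.

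In iron handling, 3 genes were higher and 3 lower of 14, beside 11.5% and 13.3% of all genes tested. Both chains of the iron store ferritin were lower, *Ftl1* with 107871, 110486 and 113617 in GCSF and 261313, 252910 and 252911 in IL3 (2.31-fold) and *Fth1* with 93127, 86522 and 83023 and 136038, 149248 and 145430 (1.64-fold), as was haem oxygenase (*Hmox1*, 2.37-fold). Cholesterol genes were called lower in 4 and higher in 0 of 24, and ribosome biogenesis genes lower in 2 and higher in 0 of 24. The share called lower among all genes tested was 13.3%. *Npm1*, nucleophosmin, was one of the ribosome biogenesis genes, with 5790, 5342 and 5512 in GCSF and 11632, 13128 and 11949 in IL3, and *Nop16* the other (-0.58), a call lost without GCSF-OHT 88h replicate 1 or 3 or IL3-OHT 88h replicate 1.

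Markers of other cell types ranged from 0 reads to well above the floor. Erythroid markers were lower in 1 of 3 tested (*Epor*) and lymphoid markers in 1 of 3 (*Il7r*), and eosinophil markers in 2 of 5 (*Prg2* and *Ear2*, at no more than 10 and 5 reads in any library) and megakaryocyte markers in 2 of 6, with none of them higher. Mast cell and basophil markers summed to 672.6 to 733.9 normalized counts in GCSF and 138.1 to 144.1 in IL3, with *Hdc* the largest part, and *Ms4a2* (1.60) and *Mcpt8* (0.86) also called higher, while *Cpa3*, *Fcer1a*, *Cma1*, *Tpsb2* and *Prss34* had 0 reads. Eosinophil markers summed to 3.96 to 10.99 in GCSF and 17.97 to 20.3 in IL3. Megakaryocyte markers summed to 554.6 to 559.8 and 1155 to 1208, mostly *Vwf*, von Willebrand factor, with 371.1, 381.8 and 398.7 and 943.95, 896.04 and 991.3. Dendritic cell markers were lower in 3 and higher in 0 of 10. They summed to 2428 to 2468 in GCSF and 3110 to 3142 in IL3, with *Tcf4* at up to 2021 and 1766 reads. Leukotriene and prostaglandin enzymes were lower in 3 and higher in 1 of 14, the one that rose being *Lta4h*, which makes leukotriene B4 (1.75-fold). Among all genes tested 13.3% were called lower and 11.5% higher.

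**Figure D3:**
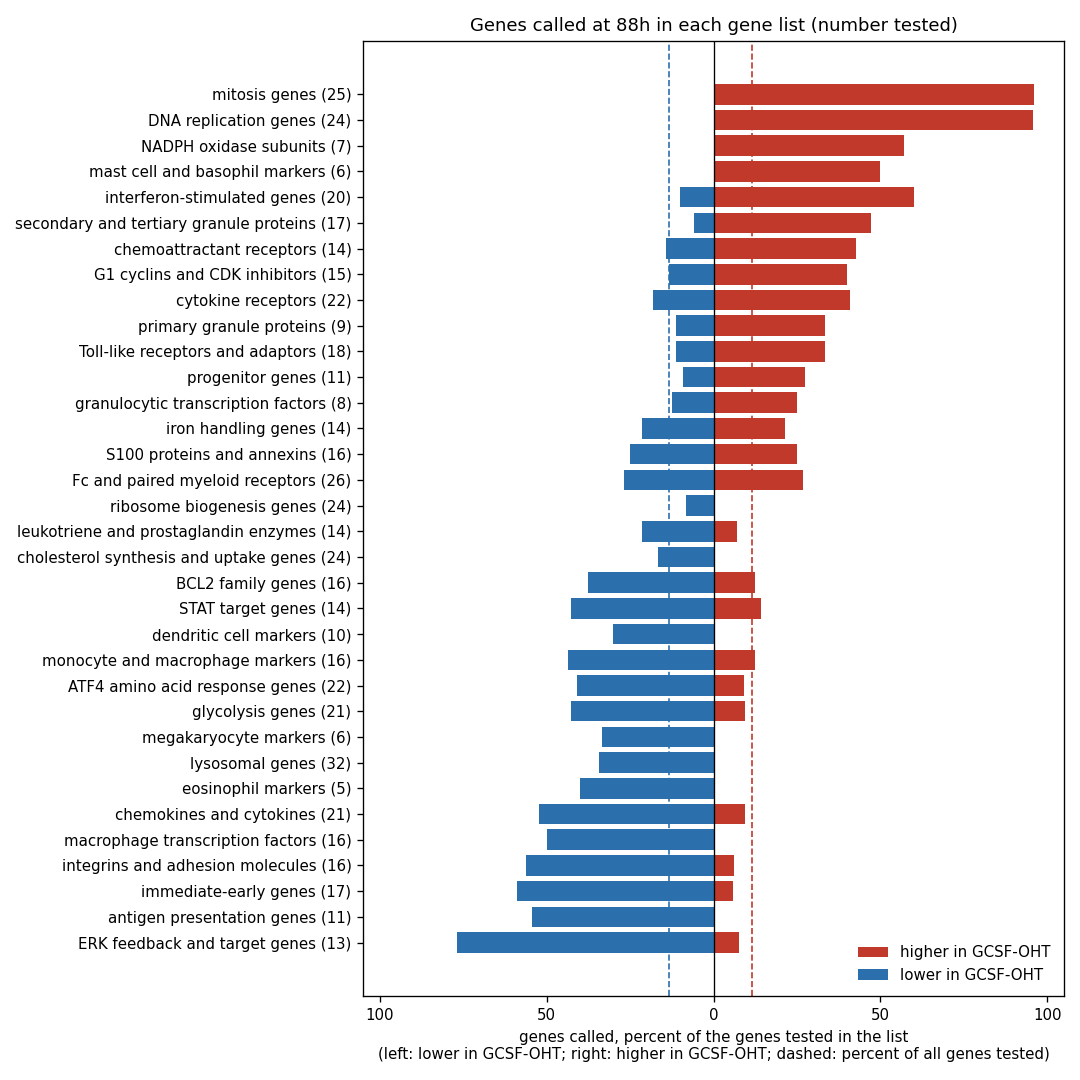
Percent of the genes tested in each list that were called higher (red, to the right) and lower (blue, to the left) in GCSF-OHT 88h, with the number tested in brackets; lists with fewer than 5 genes tested are not drawn. The dashed lines mark the 11.5% higher and 13.3% lower of all 17414 genes, with the DNA replication and mitosis lists far beyond them on the higher side and the ERK list on the lower side.

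To place 88h in the time course, the difference between GCSF and IL3 was fitted at 25 time points after OHT. IL3-OHT 96h and IL3-OHT 144h were left out of the fit, so that 96h and 144h are not among the 25. The methods of the study set both aside as outliers. The number of called genes ran from 1963 at 20h to 5939 at 136h, and the 4321 at 88h ranked 14 of 25, next to the median of 4322. GCSF-OHT had only 2 libraries at 112h and at 152h, which gives less power there, so the ranks are approximate. Of the genes higher in GCSF at 88h, 36.8% were called higher at 48h, 69.6% at 80h and 67.4% at 168h, which is 71.7%, 74.4% and 64.5% of the genes called higher at those times. Of those lower at 88h, 39.9%, 76.1% and 76.1% were called lower at 48h, 80h and 168h, or 68.6%, 72.0% and 63.1% of the lists of those times. At these 3 times no more than 11 genes of either list were called in the opposite direction. Before OHT the log2 differences were taken by size alone with no test. Of the 17414 genes tested at 88h, 2924 were then past 0.58 on the higher side and 4898 on the lower side. These held 54.4% of the genes higher at 88h and 63.5% of those lower in the same direction, or 1092 and 1470 genes. In the opposite direction 10.8% and 2.77% were past 0.58. The 1092 and 1470 genes are smaller shares of the 2924 and 4898 than the shares given for the lists of 48h, 80h and 168h.

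**Figure D4:**
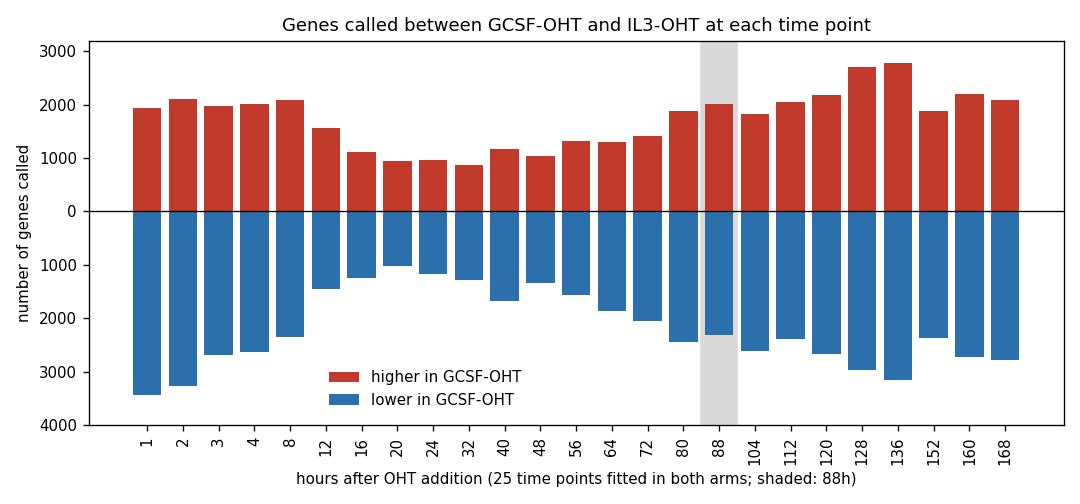
Number of genes called higher (red, upwards) and lower (blue, downwards) in GCSF-OHT than in IL3-OHT at each of 25 time points fitted in both arms (96h and 144h left out), in hours after OHT addition on a categorical axis. The shaded bar is 88h, with 2007 and 2314 genes, and the fewest genes were called at 20h. GCSF-OHT had 2 libraries at 112h and at 152h.

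The change of the difference itself was tested with an interaction contrast in the same fit. The difference is signed, GCSF minus IL3, so a higher value includes negative differences that were smaller in size at 88h. By the study's methods, cells of the later time points, 88h among them, were detached with trypsin, and cells before OHT were not. The effect of this step was not tested. Against the difference before OHT (GCSF 0h against undifferentiated cells in IL3), the difference at 88h was higher for 2433 genes (14% of those tested) and lower for 1475 (8.47%). Against 48h it was higher for 773 (4.44%) and lower for 632 (3.63%), and against 168h higher for 497 (2.85%) and lower for 362 (2.08%). Against 80h only 41 genes (0.235%) were higher and 22 (0.126%) lower by limma. That count, 63 in all, changed with the libraries kept. It was 29 without GCSF-OHT 88h replicate 2, 37 without GCSF-OHT 88h replicate 3 and 33 without IL3-OHT 88h replicate 2. It was 71 without GCSF-OHT 88h replicate 1 and 57 without IL3-OHT 88h replicate 1 or 3. By DESeq2 it was 94, and the cause of these changes was not tested.

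The values of single genes at these times are given as a description. The log2 difference of *Csf3r* was 2.38 before OHT, 3.20 at 48h, 2.98 at 80h, 3.12 at 88h and 3.86 at 168h, and that of *Tnfrsf9* -4.84, -4.60, -5.90, -5.26 and -6.72 at the same times. *Saa3* began at 1.00 before OHT and stood at 4.46, 4.86, 4.88 and 6.02. *Mki67* was at 1.70, 0.86, 1.65, 1.69 and 1.68, so that the difference at 48h was the smallest of the 5.

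**Figure D5:**
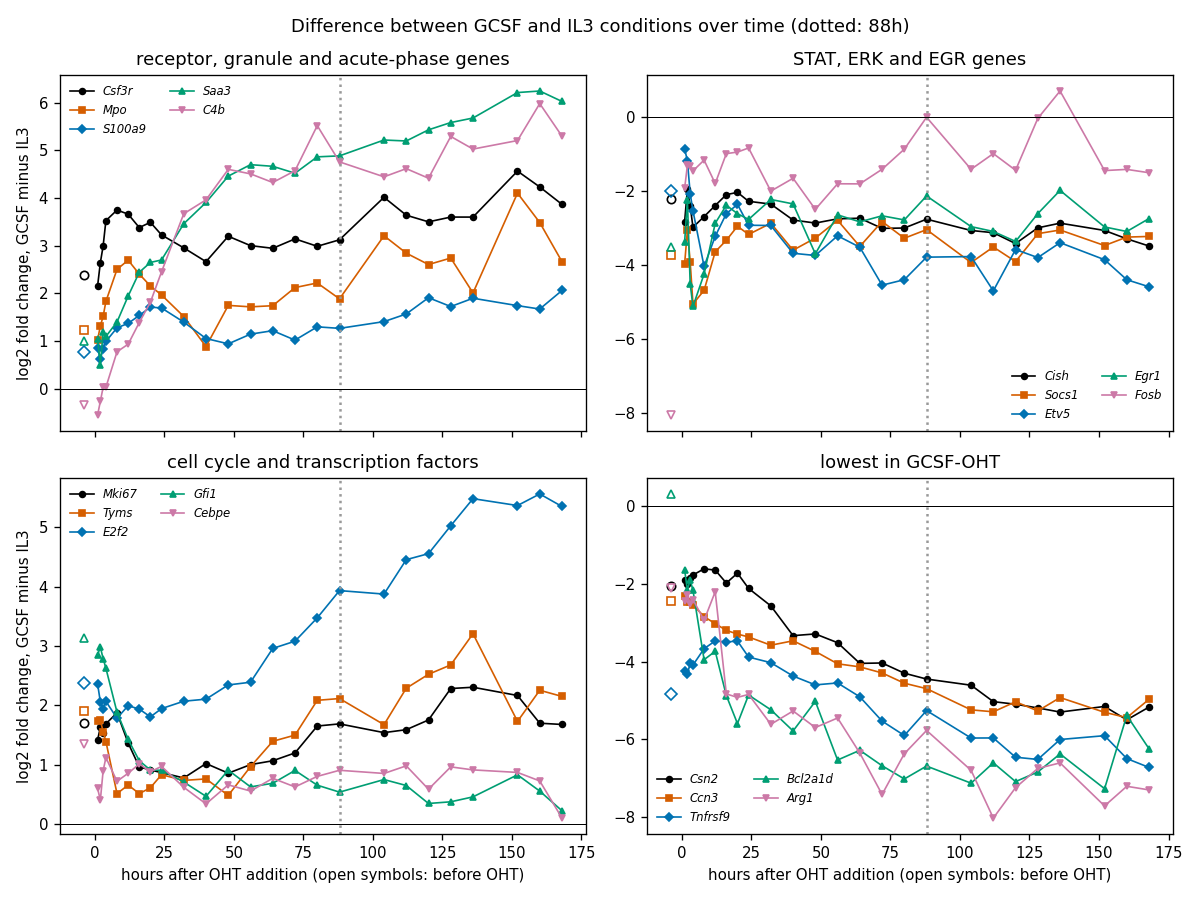
Log2 fold change of GCSF over IL3 (vertical axes) against hours after OHT addition (horizontal axes) for 20 genes in 4 panels, filled symbols and lines for the 25 time points fitted in both arms and open symbols for the difference before OHT; the dotted line marks 88h. *Csn2* and *Tnfrsf9* are below 0 at every time and lower at 168h than at 1h, *E2f2* and *Saa3* are above 0 at every time and higher at 168h than at 1h, *Gfi1* goes from 3.14 before OHT to 0.54 at 88h, and *Fosb* from -8.05 to 0.01.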

How the data were processed

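RNA of 6 libraries, 3 of GCSF-OHT 88h and 3 of IL3-OHT 88h, was read as polyadenylated RNA. The authors quantified reads with Salmon against GRCm38 and deposited a signal of normalized counts per gene, scaled by the median of ratios of DESeq2. The Salmon version and the summing of transcripts to genes are not given in the sources used here. Division by the smallest step of each library returned whole reads in all libraries (relative tolerance 1e-06), and these reads gave depth and the count tests. The table holds 36255 genes and 0 rows of the ERCC spike-in.

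Genes with at least 5 normalized counts in 1 library were kept, 17414 in all. limma 3.58.1 (R 4.3.3) was fitted to log2(normalized count + 1) with a mean for each of 54 condition and time groups over 159 libraries, without IL3-OHT 96h and IL3-OHT 144h as in the study's methods, and a trended prior (prior degrees of freedom 8.116), in place of the DESeq2 test of the study, since the values are normalized. Genes were called at a BH-adjusted p under 0.05 and a log2 fold change over 0.58 in size. Differences between time points were interaction contrasts in that fit. Alternatives were pseudocounts of 0.5 and 5, no filter, a mean of at least 10, upper-quartile scaling, a fit of only the groups compared, a replicate block, edgeR 4.0.16, DESeq2 1.42.0 and leaving out each library of 88h. In data simulated for this comparison on 17414 genes, limma recovered 46.3% of genes changed 1.5-fold, 92.5% of those changed 2-fold and 97.0% of those changed 4-fold, with 15 false calls, against 4 for edgeR and 0 for DESeq2. The genes changed were 67, 67 and 66, fewer than were called at 88h. They were drawn from genes well above the floor in IL3, so recovery near the floor was not measured. A 1.5-fold change lies close to the size threshold of 0.58, which by itself limits its recovery.

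Named genes were the 8 largest changes per direction with groups apart and a mean of at least 200 in the higher group, the 5 most abundant per direction among genes at 3 reads or fewer in the other group, up to 3 called members per list and direction with a mean of at least 50 plus the most abundant member, a set of PU.1-related genes, and the 6 largest changes per direction against each other time. Other list members were named after their values were seen. The members and lists were chosen with earlier results of these data known. Gene positions are from GENCODE on GRCm38 and start-site windows from RefSeq. Intervals of ratios of reads are Clopper-Pearson 95% intervals from the binomial share and cover counting error only. The tables were handled with Python 3.11.15, numpy 2.4.6, pandas 2.3.3 and matplotlib 3.10.9. Some list members are not reported here.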

Additional observations from a re-analysis of the deposited data

Results flagged for a closer look

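The difference between GCSF and IL3 changed between 88h and other times, by the interaction contrast of limma with BH adjustment over 17414 genes. Against the difference before OHT, 2433 genes were higher at 88h and 1475 lower. Against 48h these were 773 and 632, against 80h 41 and 22, and against 168h 497 and 362. All values below are the log2 difference between the cytokines at 88h minus that at the other time, for the 6 genes per direction with the largest change and for the genes named at every time. A higher value can stand for a negative difference that was smaller in size at 88h, and a lower value for a positive one. No cause of these changes was tested, and entries named Gm or ending in -ps are gene models or pseudogenes that can share reads with other genes.

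Compared with the difference before OHT, that at 88h was higher for *Fosb* (8.06), *Egr3* (6.99), *Dbn1* (6.74), *Slc7a11* (5.85), *4931406B18Rik* (5.34) and *C4b* (5.09). The differences of *Fosb*, *Egr3*, *Dbn1* and *4931406B18Rik* were -8.05, -6.81, -6.96 and -7.46 before OHT and 0.01, 0.18, -0.22 and -2.12 at 88h. At 88h *Egr3*, *Dbn1* and *4931406B18Rik* had means of 3.71, 4.74 and 0.37 normalized counts in GCSF and 3.01, 5.72 and 4.91 in IL3. *Slc7a11* went from -3.82 to 2.03 and *C4b* from -0.34 to 4.76. The difference at 88h was lower for *Arg1* (-3.66), *Gm12918* (-3.57), *F2rl2* (-3.43), *Inka1* (-3.25), *Csn3* (-3.21) and *Eif4a-ps4* (-3.16). Before OHT *Arg1* had means of only 0.91 normalized counts in GCSF and 7.47 in IL3. Of the genes named at every time, those called were *Csf3r* (0.74), *Mpo* (0.65), *Egr2* (1.21), *Egr1* (1.37), *Ly6c2* (-0.63), *Kit* (0.85), *Gfi1* (-2.60), *Nab2* (2.18), *Csf2rb2* (0.72) and *Csf1r* (3.33). The result for *Gm12918* was lost without GCSF-OHT 88h replicate 3, by edgeR, by DESeq2 and in a fit of only the groups compared, with and without the replicate block. The result for *4931406B18Rik* was lost by edgeR, and that for *Mpo* without GCSF-OHT 88h replicate 1 or IL3-OHT 88h replicate 2.

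Compared with the difference at 48h, that at 88h was higher for *Fosb* (2.49), *Cacna1d* (2.26), *Gm28437* (1.77), *Tcf19* (1.73), *Tyms* (1.63) and *Slfn9* (1.60). It was lower for *Gm12918* (-3.58), *Myh7b* (-3.01), *Ak1* (-2.32), *Csn3* (-2.07), *Haao* (-2.06) and *Abca8b* (-2.05). Of the genes named at every time, those called were *Egr2* (0.98), *Egr1* (1.56), *Il3ra* (-0.63), *Mki67* (0.83) and *Csf2rb2* (0.89). *Fosb* had a difference of -2.49 at 48h. The result for *Gm12918* was lost in the same alternatives as against the difference before OHT, that for *Gm28437* without replicate 1 of either group and in a fit of only the groups compared, with and without the replicate block, and that for *Il3ra* without GCSF-OHT 88h replicate 1 or IL3-OHT 88h replicate 3.

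Compared with the difference at 80h, that at 88h was higher for *Hspa1b* (1.27), *Ptgs2* (1.05), *Ltbp3* (1.04), *Angptl4* (0.95), *Lrrn2* (0.88) and *Capn5* (0.82). It was lower for *Csn3* (-1.18), *Fkbp11* (-0.90), *Ctsc* (-0.90), *Rpl38* (-0.76), *Rpl27-ps3* (-0.75) and *Fkbp7* (-0.66). Without single libraries of 88h the results for *Csn3*, *Ctsc*, *Fkbp7*, *Lrrn2*, *Ptgs2* and *Rpl27-ps3* were lost. With the replicate block together with a fit of only the groups compared, these and the results for *Angptl4*, *Fkbp11*, *Ltbp3* and *Rpl38* were lost, which leaves *Hspa1b* and *Capn5* called in every alternative.

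Compared with the difference at 168h, that at 88h was higher for *Gm38431* (2.52), *Rpl10a-ps1* (2.40), *Notch4* (2.16), *Ltf* (1.94), *Glod5* (1.71) and *Car12* (1.66). It was lower for *Mmp9* (-1.93), *Sycp2* (-1.92), *Padi4* (-1.78), *Zbp1* (-1.74), *Apoc2* (-1.65) and *Gpr82* (-1.64). Of the genes named at every time, those called were *Csf3r* (-0.74), *Mpo* (-0.78), *S100a9* (-0.79), *Cebpe* (0.80), *Egr2* (0.88) and *Irf8* (2.07). The result for *Egr2* was lost without any of 5 of the 6 libraries of 88h, the exception being IL3-OHT 88h replicate 2, without the filter on low values and in a fit of only the groups compared, with and without the replicate block.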

How the results depend on the processing

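The count of 4321 genes at 88h stayed between 3558 and 4328 in every alternative run, and between 4114 and 4263 without single libraries of 88h. The difference against 80h was the count that moved by more than 1.5 times. Its 63 genes became 21 with a replicate block together with a fit of only the groups compared, and 29 to 71 without single libraries. By DESeq2 there were 94. The cause was not tested. Replicate numbers did not pair the libraries, as the deviations of same-numbered libraries correlated at -0.025, -0.044 and -0.015. With the replicate block in the fit of all groups the counts were 4328 at 88h, 3908, 1409, 70 and 861 for the differences against before OHT, 48h, 80h and 168h, and with the block and only the groups compared 3558, 3722, 1404, 21 and 705. Of the named genes 193 kept their side of the threshold in every alternative, 17 were lost and 2 (*Irf8* and *Ltbp3*) gained in at least 1. No called gene changed direction, while 9 of the 193, uncalled throughout, changed sign in at least 1 alternative. Of 69 named differences between times 52 kept theirs and 17 were lost. At 88h, single libraries decided the calls of *AC139209.1*, *B2m*, *C5ar1*, *Csf1r*, *Glod5*, *Gm10222*, *Gm12918*, *Gm28437*, *Gm45140*, *Irf8*, *Ltbp3*, *Myb*, *Nop16* and *Rara*. Depth limits genes near 3 reads, and 3 wells a group, with a spread pooled over all groups by limma, limit all p-values.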
